A study of Arabidopsis thaliana with 8 samples.

Results

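The genes described here are 45 Arabidopsis thaliana regulators of leaf growth, leaf polarity and the shoot meristem. They were chosen by locus identifier: TCP factors, GRF factors and their partner GIF1, AS1 and AS2, KANADI, YABBY and HD-ZIP III factors, class I KNOX genes, the WUS/CLV genes, CUC genes, organ size genes and ANGUSTIFOLIA (AN). Of the 45 loci, 32 were listed in the count table, which holds 17710 loci in all, and 13 were not. Of the 32, 31 had counts and 1 (CUC2) was listed at 0 in both libraries.

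The study profiled mRNA of shoots from 7-day-old seedlings of 4 genotypes that differ in the form of their cotyledon cells. Seedlings stood on upright MS agar plates with 16 h of light a day and a dark period of 8 h. The libraries used here are the 2 of Col, the Columbia accession that serves as reference, which carries no allele or treatment according to the labels and is identified by column name. The other genotypes (CA1-1, cae2-1 and their combination) were not analysed here, so each result compares genes within Col or the 2 Col libraries with each other. Shoots were harvested for RNA. The design text calls the replicates biological, and whether separate plates were used is not stated.

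A leaf grows out from the flank of the shoot apical meristem, a small dome in which WUS keeps stem cells and the CLV3 peptide, sensed by CLV1 and CLV2, limits their number. Class I KNOX homeodomain factors keep meristem cells undifferentiated, and AS1 with AS2 shuts KNOX genes off in leaf primordia. The upper (adaxial) side of a leaf is specified by HD-ZIP III factors and the lower (abaxial) side by KANADI and YABBY factors. GRF factors with GIF1 prolong cell division in the young blade, whereas the CIN class of TCP factors ends it. CUC factors mark the boundaries between organs.

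Many of these genes are held in check by microRNAs, and the target sites are shown first because they group the members by sequence, independently of the counts. Mature sequences and spliced transcripts were taken from the RefSeq annotation of TAIR10.1 by locus tag. In the microRNA sequences, written 5′ to 3′, capitals mark the seed (bases 2 to 8).
ath-miR319a: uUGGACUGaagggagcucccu
ath-miR319c: uUGGACUGaagggagcuccuu
ath-miR396a-5p: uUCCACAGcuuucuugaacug
ath-miR165a-3p: uCGGACCAggcuucauccccc
ath-miR166a-3p: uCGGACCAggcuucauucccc
ath-miR164a: uGGAGAAGcagggcacgugca
The 2 miR319 forms share 1 seed, and miR165 and miR166 share another.

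A target match was scored with 1 point per mismatch, 0.5 per G:U pair and 2 for a single unpaired target base, and matches of up to 4 points were kept. By this score 16 members held a match, of which 12 were listed in the count table. In the sites below, written 5′ to 3′ as RNA, capitals mark bases in Watson-Crick pairs with the best-scoring microRNA of the family, and lower case marks mismatches, G:U pairs and unpaired bases. The 5 CIN TCP genes with a miR319 match, scored against miR319c, each had a different sequence.
TCP2: cAGGgGgaCCCUUCAGUCCAA
TCP3: gAGGgGucCCCUUCAGUCCAu
TCP4: gAGGgGucCCCUUCAGUCCAg
TCP10: AAGGgGuaCCCUUCAGUCCAg
TCP24: uAGGgGgaCCCUUCAGUCCAA
TCP10 had the lowest penalty (2.5), TCP4 had 3, and TCP2, TCP3 and TCP24 had 3.5. TCP5, TCP13 and TCP17, also of the CIN class, held no match.

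Of the 5 GRF genes, 4 held a miR396 match, in 2 forms that differ at their 5′ end, and each had 1 unpaired base in the target. GRF5 held no match within 4 points.
GRF1 and GRF2: ucGUUCAAGAAAGcCUGUGGAA
GRF3 and GRF4: CcGUUCAAGAAAGcCUGUGGAA
All 5 HD-ZIP III genes held a miR165 or miR166 match with a penalty of 2.5, in 3 forms. The site of ATHB15 was scored against miR166a and the others against miR165a.
PHB and PHV: uuGGGAUGAAGCCUGGUCCGg
REV and ATHB8: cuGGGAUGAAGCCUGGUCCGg
ATHB15: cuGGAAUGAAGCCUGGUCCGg
CUC1 and CUC2 shared 1 miR164 site with a penalty of 2.
CUC1 and CUC2: aGCACGUGuCCUGuUUCUCCA
All 16 sites lay in coding sequence. The miR319 site was in exon 1 of TCP3, TCP4 and TCP10 and in exon 2 of TCP2 and TCP24, the miR396 site in exon 3 of 4, and the miR164 site in exon 3 of 3. The HD-ZIP III sites crossed an exon junction, from exon 4 to 5 in PHB, PHV, REV and ATHB15 and from exon 5 to 6 in ATHB8. Among 16975 listed coding transcripts, the share with a match of this quality was 0.0353% for miR165a and 0.0825% for miR166a. It was 0.0707% for miR319a and 0.189% for miR319c. For miR164 it was 0.141% (miR164a) and 0.106% (miR164c), and for miR396 0.495% (miR396a) and 0.913% (miR396b).

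The listed models summed to 2571129 and 2408685 counts in the 2 libraries, of which the members took 2683 (0.104%) and 2552 (0.106%). Each column header carries a larger number, whose meaning is not stated in the sources used here. Whether the listed models hold all counted reads is therefore not known, and shares and CPM refer to listed counts only. Levels are CPM, counts scaled to a common library size by the TMM method. Where genes are compared with each other, CPM was divided by the length of the spliced transcript in kilobases (CPM per kb). Marker genes are given as a description of the tissue. They were chosen with their levels known and so cannot test the tissue label. The summed level of the 4 photosynthetic genes was 51551 CPM (replicate 1) against 25502 CPM (replicate 2), while of 10 listed root markers 7 were at 0 in both libraries and all 10 summed to 31.7 and 12.1 CPM. The root markers CASP1 (21.3 and 4.43 CPM) and CASP2 (8.43 and 6.84 CPM) reached a mean of 5 CPM. The seed gene SESA1 had 4 and 5 counts, and of the flower genes AP3 had 0 in both and PI had 3 and 0. Shoot markers were thus abundant in both libraries, and the photosynthetic and root sums were each higher in replicate 1.

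Most listed members were present at moderate levels. A mean of 5 CPM was reached by 30 of the 32 (93.8%), against 60.2% of all listed loci, and none of the members reached a mean of 100 CPM. Their median level was 10.5 CPM per kb, against 6.31 over the 17301 loci with a known length, and 24 of 32 were above that median. None exceeded the 90th percentile of all loci, 75.9 CPM per kb. FIL was highest at 70.8 ± 32.7 CPM per kb (SD, n = 2), and CUC3 was the lowest of those with counts at 1.96 ± 0.392 CPM per kb. In the order of levels, 28 of 31 neighbouring pairs overlapped between libraries. The breaks lay between TCP15 and CYP78A5, between PHV and TCP5 and between CUC3 and CUC2, so the order holds only over longer distances. The lower library of FIL was above both libraries of 29 of the other members.

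**Figure D1:**
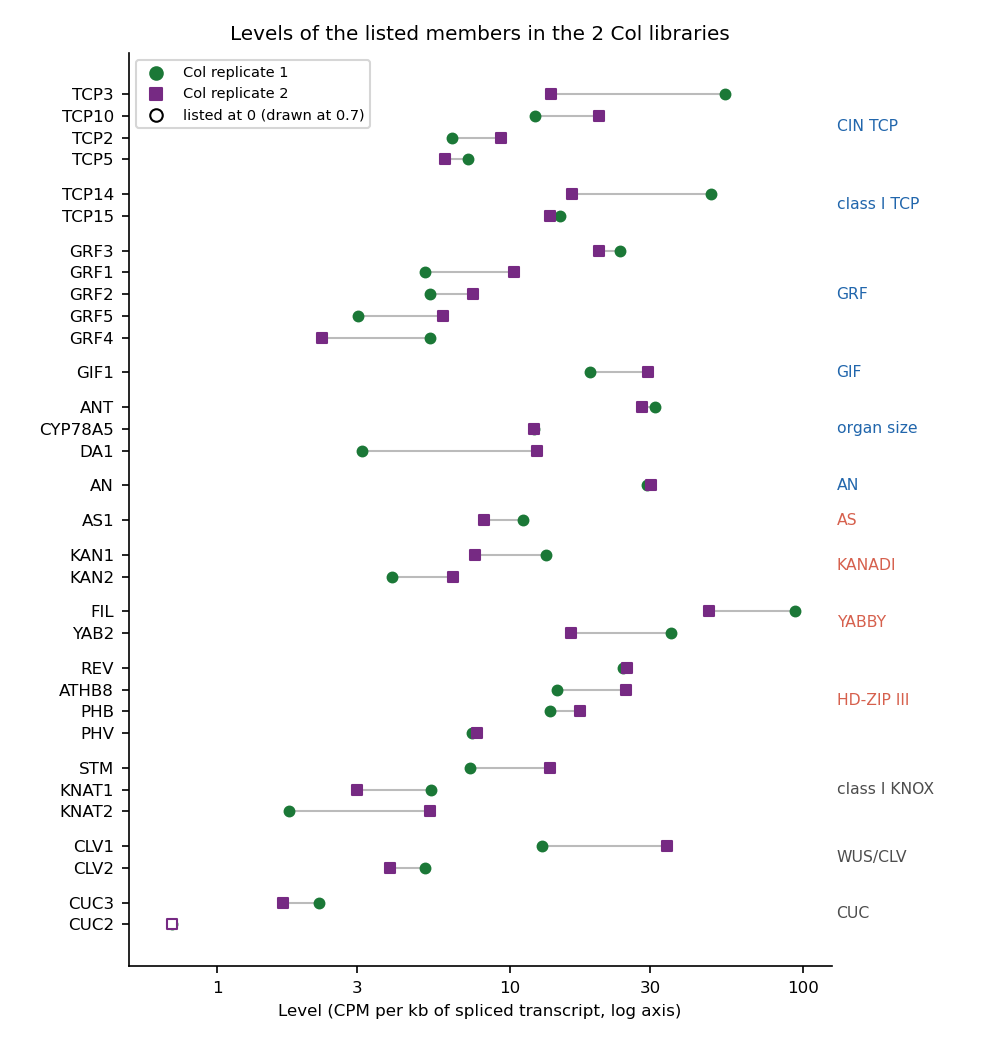
Level of each of the 32 listed members in CPM per kb of spliced transcript (log axis), by family. Circles are Col replicate 1 and squares are Col replicate 2, with a line joining them; CUC2, listed at 0, is drawn open at the left edge. FIL lies furthest right, and AN, ANT, REV and CYP78A5 have nearly the same level in both libraries.

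Among leaf growth genes, TCP3 (AT1G53230) was the highest CIN TCP, but in 1 library only. In replicates 1 and 2, TCP3, a factor that promotes the exit from division in leaves, had 248 and 63 counts (54.0 and 13.7 CPM per kb). TCP10 (AT2G31070) had 61 and 101 counts (12.1 and 20.1 CPM per kb), and TCP2 (AT4G18390) had 30 and 44 (6.35 and 9.33 CPM per kb). TCP5 (AT5G60970) had 30 and 25 counts (7.18 and 5.99 CPM per kb). The leading member therefore differed by library: TCP3 made up 67.8% of the listed CIN TCP level in replicate 1 and 27.9% in replicate 2, where TCP10 made up 40.9%. TCP4 (AT3G15030), TCP24 (AT1G30210), TCP13 (AT3G02150) and TCP17 (AT5G08070) were not listed, so these shares cover 4 of 8 CIN genes.

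The class I factors TCP14 (AT3G47620) and TCP15 (AT1G69690) act together on cell proliferation in young organs and internodes. TCP14 had 299 and 100 counts, or 48.6 and 16.3 CPM per kb, whereas TCP15 had 76 and 70, or 14.8 and 13.7 CPM per kb. The ratio of TCP14 to TCP15 was 3.29 in replicate 1 and 1.19 in replicate 2. By transcript length both libraries placed TCP14 above TCP15, but by different amounts. With coding length the order in replicate 2 was reversed, at 27.4 CPM per kb for TCP14 and 28.8 for TCP15.

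GRF3 (AT2G36400) was the highest of the GRF genes in both libraries. It had 113 and 95 counts (45.4 and 38.2 CPM), a mean of 21.9 ± 2.64 CPM per kb (SD, n = 2), and made up 55.8% and 43.6% of the GRF level. The other 4 lay between 3.81 and 7.70 CPM per kb on average, in an order that changed between libraries, with GRF1 (AT2G22840) at 27 and 54 counts, GRF2 (AT4G37740) at 28 and 39, GRF5 (AT3G13960) at 15 and 29 and GRF4 (AT3G52910) at 21 and 9. The lower library of GRF3 was above both libraries of each other GRF gene. The coactivator gene GIF1 (AT5G28640), also known as AN3, had 67 and 106 counts, or 18.7 and 29.6 CPM per kb, which was 0.438 and 0.645 of the summed level of the 5 GRF genes. These ratios would be higher with coding length, by which GIF1 stood at 42.5 and 67.4 CPM per kb.

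The organ size and shape genes ANT (AT4G37750) and AN (AT1G01510) were among the steadiest members. ANT, an AP2-type factor that sustains growth of young organs, had 167 and 151 counts, or 31.1 and 28.2 CPM per kb. AN, a CtBP-like protein that shapes leaf cells and trichomes, had 192 and 198 counts, or 29.2 and 30.2 CPM per kb. CYP78A5 (KLU, AT1G13710), a cytochrome P450 that stimulates organ growth, had 58 counts in each library, or 12.1 CPM per kb in both. DA1 (AT1G19270), a peptidase that limits organ size, behaved differently, with 19 counts in replicate 1 and 75 in replicate 2 (3.13 and 12.4 CPM per kb). BB (AT3G63530), a ubiquitin ligase gene of the same pathway, was not listed.

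Among polarity genes the abaxial side was led by FIL and the adaxial side by REV (AT5G60690). FIL (YAB1, AT2G45190), a YABBY factor of the abaxial domain, had 261 and 132 counts, or 93.9 and 47.6 CPM per kb, and YAB2 (AT1G08465) had 107 and 49, or 35.3 and 16.2 CPM per kb. FIL stood at 2.66 and 2.94 times YAB2, so the pair kept nearly the same ratio although both were lower in replicate 2. With coding length the excess was smaller in both libraries, with FIL at 152 and 77.0 CPM per kb and YAB2 at 77.4 and 35.5. YAB3 (AT4G00180) and YAB5 (AT2G26580) were not listed. KAN1 (AT5G16560) had 79 and 45 counts (13.3 and 7.58 CPM per kb) and KAN2 (AT1G32240) had 18 and 29 (3.96 and 6.40 CPM per kb), so KAN1 exceeded KAN2 by 3.35 times in replicate 1 and 1.18 times in replicate 2.

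Of the HD-ZIP III genes, REV had 215 and 220 counts (86.3 and 88.5 CPM), a mean of 24.7 ± 0.445 CPM per kb (SD, n = 2). ATHB8 (AT4G32880), which marks procambium and future veins, had 114 and 196, or 14.5 and 24.9 CPM per kb. PHB (AT2G34710) had 107 and 135 counts (13.7 and 17.3 CPM per kb), and PHV (AT1G30490) had 57 and 59 (7.43 and 7.71 CPM per kb). REV was highest and PHV lowest in both libraries, while ATHB8 was close to PHB in replicate 1 and close to REV in replicate 2. ATHB15 (AT1G52150) was not listed. By transcript length, the 4 adaxial genes summed to 0.409 of the 4 abaxial genes in replicate 1 and 0.963 in replicate 2. The abaxial genes were KAN1, KAN2, FIL and YAB2. Both ratios would be lower with coding length, by which each abaxial level rose by a larger factor than any adaxial level. YAB2 then stood at 77.4 and 35.5 CPM per kb, and ATHB8 at 18.3 and 31.5. ATHB8, given above as a marker of procambium and future veins, made up 24.2% and 33.3% of the listed HD-ZIP III level. AS1 (AT2G37630), a MYB factor that represses KNOX genes, had 53 and 39 counts, or 11.1 and 8.17 CPM per kb, and its partner AS2 (AT1G65620) was not listed.

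Of the 7 listed meristem genes, CLV1 (AT1G75820) had the highest mean level and CUC2 was listed at 0. STM (AT1G62360), which maintains the meristem, had 31 and 58 counts, or 7.30 and 13.7 CPM per kb. KNAT1 (BREVIPEDICELLUS, AT4G08150) had 27 and 15 counts (5.37 and 2.99 CPM per kb), and KNAT2 (AT1G70510) had 8 and 24 (1.77 and 5.32 CPM per kb). STM was the highest class I KNOX gene in both libraries, with 50.5% and 62.2% of the listed KNOX level. In replicate 1 its 95% counting interval (8.45 to 17.7 CPM) overlapped that of KNAT1 (7.14 to 15.8 CPM). KNAT6 (AT1G23380) was not listed. KNAT2 and KNAT6, PHB and PHV, FIL and YAB3, and CUC1 (AT3G15170) and CUC2 (AT5G53950) are similar copies, and how shared reads were divided between them is uncertain. The 3 KNOX genes summed to 1.30 times the level of AS1 in replicate 1 and 2.69 times in replicate 2.

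The receptor kinase gene CLV1 had 114 and 303 counts, or 12.9 and 34.4 CPM per kb. CLV2 (AT1G65380), which encodes a receptor-like protein without a kinase domain, had 33 and 25 counts, or 5.12 and 3.89 CPM per kb. CLV1 was above CLV2 in both libraries, by 2.52 times in replicate 1 and 8.84 times in replicate 2. WUS (AT2G17950) and CLV3 (AT2G27250) were not listed. Of the boundary genes, CUC3 (AT1G76420) had 8 and 6 counts (3.21 and 2.41 CPM), with two-sided 95% exact Poisson intervals of 1.39 to 6.33 and 0.886 to 5.25 CPM. CUC2 was listed at 0 in both libraries. No model in the table has a count of 1, so a listed 0 may stand for 0 or 1. With 1 count the one-sided 95% exact Poisson limit is 4.74 counts, equal to 1.90 and 1.91 CPM in these libraries. CUC1 was not listed.

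**Figure D2:**
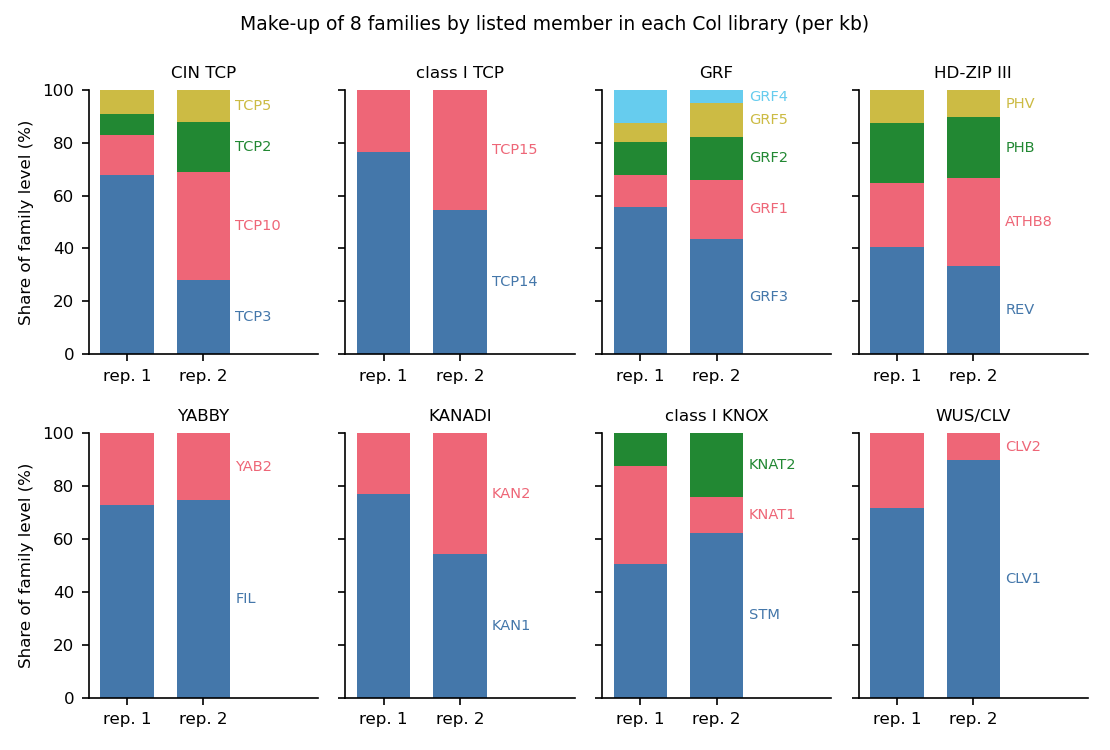
Share of each family's summed level (%, CPM per kb) held by each listed member in Col replicate 1 and replicate 2, for 8 families. The YABBY bars are nearly alike (FIL at 72.7% and 74.6%), whereas TCP3 holds 67.8% of the CIN TCP bar in replicate 1 and 27.9% in replicate 2.

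Absence from the table was not a measurement of expression. Of the 13 members that were not listed, 11 have several annotated transcript models in TAIR10.1, as do 7 of the 32 listed members. These 7 are FIL, TCP3, TCP2, GIF1, DA1, KAN2 and KNAT2, each counted in 1 listed model only. Over all protein-coding loci, 55.2% of those with 1 model and 53.1% of those with several were listed.

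The 2 libraries were then compared member by member. An exact binomial test (two-sided) compared the division of each model's counts with that of the TMM-scaled totals. The p-values were Benjamini-Hochberg adjusted over all 10701 models at a mean of 5 CPM or more, with a threshold of 0.05. This compares 2 libraries of 1 genotype with counting error only, and not conditions. Of the 30 members tested, 13 (43.3%) differed beyond counting error, 5 higher in replicate 1 and 8 higher in replicate 2. Over all models tested the share called was 55.3%, with 27.6% higher in replicate 1 and 27.7% higher in replicate 2. Over the 8711 models at 5 to 100 CPM, the range that holds all 30, it was 49.6%. The members' median log2 ratio of replicate 1 over replicate 2, with 0.5 CPM added to each, was −0.04 against −0.00 over all models, and their median absolute log2 ratio was 0.69 against 0.58 over all models and 0.60 over those at 5 to 100 CPM. Whether the members differ from other models in either measure was not tested.

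A difference of at least 2-fold beyond counting error was found for 7 of the 30 members tested, against 2756 of all 10701 models (25.8%). TCP3 was 3.93-fold higher in replicate 1 (adjusted p = 8.22e-26, exact binomial test), TCP14 2.98-fold (adjusted p = 6.67e-23, same test) and YAB2 2.18-fold (adjusted p = 1.54e-05, same test). In replicate 2, DA1 was 3.96-fold higher (adjusted p = 1.67e-08, same test), KNAT2 3.01-fold (adjusted p = 0.00985), CLV1 2.66-fold (adjusted p = 6.27e-20) and GRF1 2.01-fold (adjusted p = 0.00602). The log2 ratio of TCP3 (1.95) was larger in size than that of 96.0% of all models tested, and that of DA1 (−1.92) larger than that of 95.7%. KNAT2 rests on 8 and 24 counts, and its 95% counting interval for the log2 ratio ran from −2.95 to −0.39.

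Smaller differences beyond counting error were seen for 6 more members. FIL was 1.97-fold higher in replicate 1 (adjusted p = 5.03e-10, exact binomial test) and KAN1 1.75-fold (adjusted p = 0.00661, same test). In replicate 2, STM was 1.88-fold higher (adjusted p = 0.0091, same test), ATHB8 1.72-fold (adjusted p = 1.13e-05), TCP10 1.66-fold (adjusted p = 0.00393) and GIF1 1.59-fold (adjusted p = 0.00676). TCP3 and TCP10, both of the CIN class and both with a miR319 site, thus differed in opposite directions.

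The other 17 tested members did not pass. GRF4 (log2 ratio 1.12, adjusted p = 0.0736 by the exact binomial test) and GRF5 (−0.90, adjusted p = 0.0625) had wide counting intervals, from 0.03 to 2.53 and from −1.96 to −0.01. The intervals were narrow for AN (−0.34 to 0.25) and REV (−0.31 to 0.24). For AN, ANT, REV, PHV, TCP15 and CYP78A5 the log2 ratio lay between −0.05 and 0.14.

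**Figure D3:**
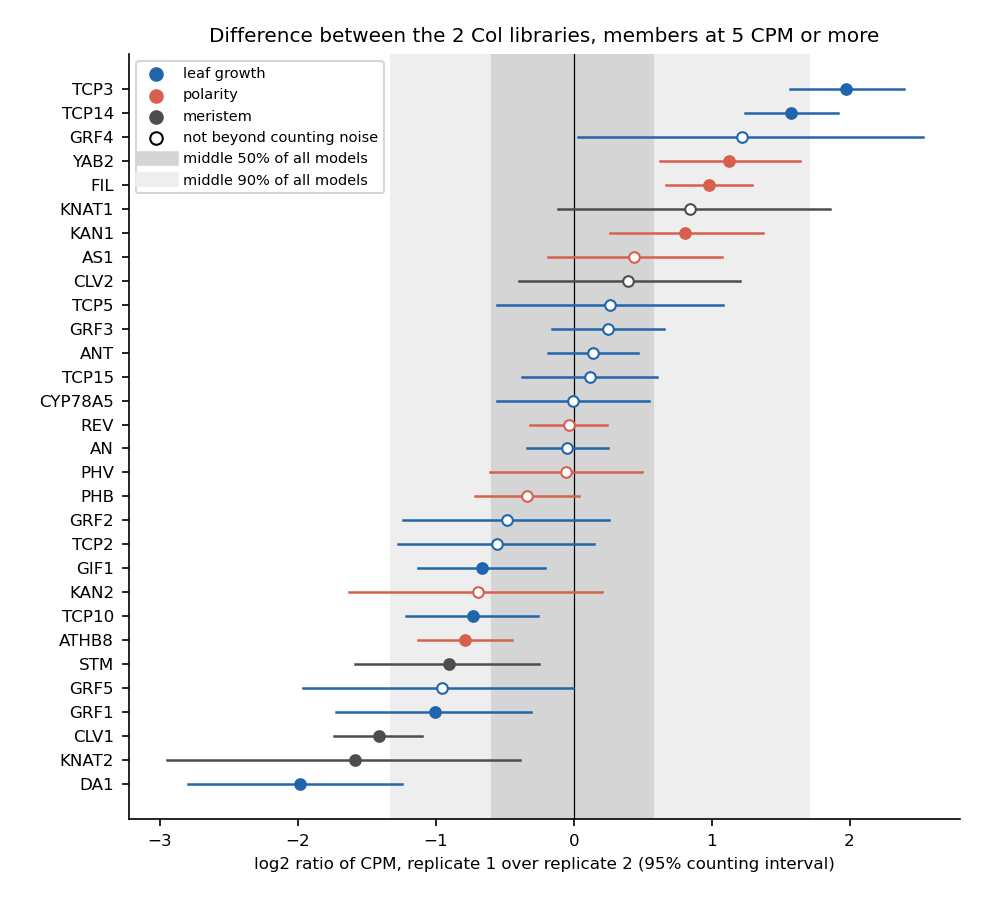
Log2 ratio of CPM between Col replicate 1 and replicate 2 for the 30 members at 5 CPM or more, with 95% counting intervals, both with no constant added. Filled points passed the exact binomial test, colours give the role, and bands hold the middle 50% and 90% of all 10701 models on ratios with 0.5 CPM added (−0.60 to 0.58 and −1.33 to 1.71). TCP3 lies to the right of the wider band, and DA1, KNAT2 and CLV1 lie to its left.

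By role, the background is the 27.6% (replicate 1 higher) and 27.7% (replicate 2 higher) of all models, and differences between roles were not tested. Of the polarity genes, 3 (FIL, YAB2 and KAN1, all abaxial) were higher in replicate 1 and 1 (ATHB8, adaxial) in replicate 2, of 9 tested. KAN2, also abaxial, leaned to replicate 2 (log2 ratio −0.66) and was not called. The adaxial genes REV, PHV and PHB were not called either (−0.04, −0.05 and −0.34). Of 5 tested meristem genes, 3 (STM, KNAT2 and CLV1) were higher in replicate 2 and 0 in replicate 1. Of 16 tested leaf growth genes, 2 (TCP3 and TCP14) were higher in replicate 1 and 4 (TCP10, GRF1, GIF1 and DA1) in replicate 2. The summed level of the listed meristem genes was 34.7 CPM per kb in replicate 1 and 61.9 in replicate 2. Of these sums CLV1 alone held 12.9 and 34.4 CPM per kb, while KNAT1, CLV2 and CUC3 leaned to replicate 1 with no call. The polarity genes summed to 217 and 161 CPM per kb. Without FIL and YAB2 the other 7 polarity genes summed to 88.2 and 97.1 CPM per kb, the opposite direction, and the median log2 ratio of the 9 was −0.04. All 4 photosynthetic marker genes were higher in replicate 1, by 1.64 to 2.32 times, as was the root marker CASP1 (53 and 11 counts). Whether the make-up of the harvested tissue had a part in these differences was not tested, and in bulk shoot RNA fewer cells of a type and less RNA per cell cannot be told apart.

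**Figure D4:**
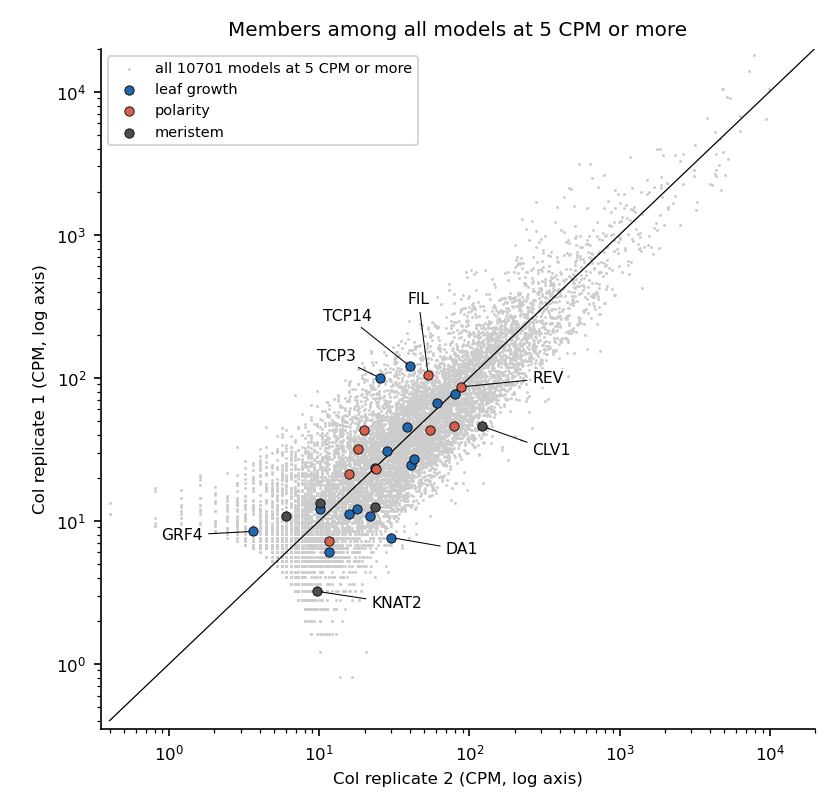
CPM in Col replicate 1 against replicate 2 (log axes) for all 10701 models at 5 CPM or more (grey) and the 30 members (coloured by role), with the line of equality. The members lie within the cloud of all models. Among the members, TCP3 and TCP14 lie furthest above the line and DA1 furthest below it.

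Members with a microRNA site included genes higher in each library. Of 11 tested members with a site, 4 differed beyond counting error, 1 higher in replicate 1 (TCP3) and 3 higher in replicate 2 (TCP10, GRF1 and ATHB8). Of 19 tested members without a site, 9 did so, 4 higher in replicate 1 and 5 in replicate 2. The share over all models was 55.3%, or 49.6% at 5 to 100 CPM, and the difference between members with and without a site was not tested. The 4 listed genes with a miR165 or miR166 site had log2 ratios from −0.78 to −0.04, and those with a miR396 site ranged from −0.97 to 1.12. Of 17 precursor genes of the 4 microRNA families, a list added after the values were seen, MIR319b was listed, at 0 in both libraries, and 16 were not.

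Beyond the members, 81 genes of the same pathways were followed in 10 lists. Of these, 56 were listed, 35 reached 5 CPM and 19 differed between the libraries, 11 higher in replicate 1 and 8 in replicate 2, beside 55.3% of all models called, 27.6% and 27.7% by direction. With 1 to 6 genes tested per list, no list's count was compared with that share by a test. Among 5 other TCP genes at 5 CPM or more, the class I genes TCP7 (57.4 and 96.2 CPM; AT5G23280) and TCP20 (41.7 and 88.9 CPM) and AT5G08330 (108 and 181 counts) were higher in replicate 2, and TCP22 (93.1 and 59.9 CPM; AT1G72010) in replicate 1. In the GRF and GIF list only GIF3, a paralogue of GIF1, reached 5 CPM. It had 49 and 8 counts, 6.11-fold higher in replicate 1 (adjusted p = 1.41e-07, exact binomial test) and so opposite to GIF1. KAN3, the 1 further KANADI gene at that level, had 26 and 78 counts (10.4 and 31.4 CPM) and was higher in replicate 2.

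Of 5 polarity partners at 5 CPM or more, 2 were higher in replicate 1 and 0 in replicate 2. ARF4, an auxin response factor of the abaxial side, had 581 and 188 counts (233 and 75.6 CPM), a 3.08-fold difference (adjusted p = 7.28e-46, exact binomial test). Its relative ARF3 (ETT) had 176 and 149 counts (70.6 and 59.9 CPM) and did not pass. AGO7, needed for the small RNAs that restrict both factors, had 28.9 and 17.7 CPM and was higher in replicate 1.

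Of 10 class II KNOX and BELL genes 7 were listed, and among these KNAT4 had the highest CPM (170 and 195) and did not pass. KNAT5 (43.7 and 20.1 CPM) and ATH1 (64.2 and 13.7 CPM), a BELL factor that partners class I KNOX proteins, were higher in replicate 1, ATH1 by 4.69-fold, opposite to STM and KNAT2. Of 6 genes of the CLAVATA and HAM list at 5 CPM or more, 2 were higher in replicate 2 and 0 in replicate 1. They were BAM2, a receptor kinase gene related to CLV1 (146 and 200 CPM), and HAM2 (14.0 and 37.4 CPM), while HAM1 (43.3 and 41.8 CPM) and HAM3 (36.5 and 39.4 CPM) did not pass.

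Of 2 boundary genes at 5 CPM or more, BOP2 (30.1 and 17.3 CPM) was higher in replicate 1, BOP1 (5.62 and 5.23 CPM) did not pass, and LAS was listed at 0 in both libraries. Of 6 further leaf growth genes at that level, 3 were higher in replicate 1, namely ARGOS (124 and 87.3 CPM), PPD2 (146 and 87 counts; AT4G14720) and ROT3, and 1, SPL9, in replicate 2. Of the microRNA machinery, SE (40.5 and 23.7 CPM) was higher in replicate 1 and HYL1 (25.7 and 20.5 CPM) did not pass.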

How the data were processed

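Raw read counts per gene model were used as the authors deposited them, and the column headers name them raw. Per the submitters' processing notes, the genome build was TAIR10. Not given in the sources used here are the aligner, the counter, the strand setting and the handling of reads shared by similar genes. The 2 columns named by the titles of the Col samples were used, and 6 other columns match no title and were not used. Libraries were scaled by TMM in edgeR 4.0.16 (R 4.3.3). Each locus was represented by its model with most counts, and each listed member had 1 listed model. Tests and intervals (scipy 1.17.1) cover counting error only, since they hold no term for variation between libraries. They also treat reads as independent, although no molecular identifiers mark which reads come from 1 molecule. With 2 libraries of 1 group, a test between groups such as DESeq2 had no contrast to fit. Transcript lengths, microRNAs and transcripts came from RefSeq TAIR10.1 by model or locus tag, for 32 of 32 listed members. No coordinates are printed because that build is not the one named by the submitters. Members and gene lists were chosen with earlier results of these data known. Every member could be named, with values per library for the 3 highest of each family and for those at least 2-fold apart beyond counting error, and the 3 genes with the highest mean CPM of each pathway list. The remaining members and some other list genes were named after their values were seen. The steps were tested on simulated data.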

Additional observations from a re-analysis of the deposited data

How the results depend on the processing

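Results were recomputed with RLE factors or unscaled totals, without organelle models, with other level filters, with summed models per locus and with a pseudocount of 2 CPM. The count of 13 members beyond counting error ranged from 9, at a mean of 20 CPM or more where 17 were tested and 5 were higher in replicate 1, to 15 with no scaling. Without scaling PHB (adjusted p = 0.0446, exact binomial test) and GRF5 (0.0427) also passed, and the median over all models was −0.09. The members' median log2 ratio ranged from −0.13 to −0.00. No called member changed direction or lost its call under an alternative that tested it. Each library alone gave 29 members at 5 CPM or more. With coding length in place of transcript length, 24 of 32 levels moved by more than the SD between libraries, and no member moved by more than 5 places in the order. No paired analysis was possible because only Col columns could be matched to samples. Low counts limit KNAT2, GRF4, GRF5, CUC2 and CUC3.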

Other observations

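Several genes with broad roles that act with the members had few or no counts in the listed model. TPL, a co-repressor recruited by many transcription factors, had 0 and 4 counts, the receptor kinase gene BAM1 had 0 and 6, and the phosphatase gene POL had 3 and 0. SYD, a chromatin remodelling ATPase, had 21 and 45 counts and was higher in replicate 2 (adjusted p = 0.0069, exact binomial test). Whether the count of a listed model gives the level of its whole gene was not tested for these genes. Nor was it tested for the 7 listed members with several annotated models (FIL, TCP3, TCP2, GIF1, DA1, KAN2 and KNAT2). CUC2 and CUC3 have 1 annotated model each.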
